A study of Mus musculus with 18 samples.

Results

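Ribosome biogenesis factors are the proteins that make, cut, modify and assemble the RNA and protein parts of the ribosome. The set described here held 57 genes, chosen by name as nucleolar and ribosomal RNA processing factors. Measured values were not a criterion, but earlier results of these data were known when the genes were chosen. All 57 were found among the 16909 gene symbols of the count table, and all 57 stood among the 12465 genes with enough counts to be tested. The RNA came from mouse bone marrow macrophages in 18 libraries of poly(A) RNA. The labels name 4 groups: a mock group (Con, 3 libraries), lipopolysaccharide as the positive control for inflammation (LPS, 5 libraries), and a pair of treatments described as anti-inflammatory. These are STSABs (5 libraries) and UVABs (5 libraries), the STS-induced and UV-induced "hucMSC-ABs" of the labels, which spell out none of these abbreviations. The labels give no dose, time, strain or age, and they do not say whether the AB groups also received LPS. Nothing in them says that libraries of a group came from separate cultures or animals, so the p-values speak only for the scatter among these libraries, part of which may come from handling.

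Ribosomes are built mainly in the nucleolus. RNA polymerase I copies the ribosomal DNA into a long precursor, small nucleolar ribonucleoproteins (snoRNPs) guide its methylation and pseudouridylation, and the small subunit processome folds and cleaves its first part, while a separate set of factors assembles the large subunit. The process is one of the costliest of a growing cell, and the transcription factor MYC is known to raise the expression of many of its genes.

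Values are CPM, counts divided by each library's total after that total was scaled by the trimmed mean of M-values (TMM), and totals were 17588357 to 18675283 estimated counts per library. The smallest count of any of the 57 factors in any library was 21. The factors made up 0.351% ± 0.0134 (SD, n = 3) of all counts in Con, 0.146% ± 0.00429 (SD, n = 5) in LPS, 0.104% ± 0.00334 (SD, n = 5) in STSABs and 0.103% ± 0.00380 (SD, n = 5) in UVABs. Of the factors' counts over all libraries, 29.3% belonged to Ncl and Npm1, which encode the abundant nucleolar proteins nucleolin and nucleophosmin. Macrophage markers were abundant in each group, with a summed level of 11900 to 15610 CPM over 15 genes in the 18 libraries, while the T cell marker Cd3e had 7 counts in all libraries together. In bulk RNA, fewer cells of a type and less RNA per cell cannot be told apart.

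**Figure D1:**
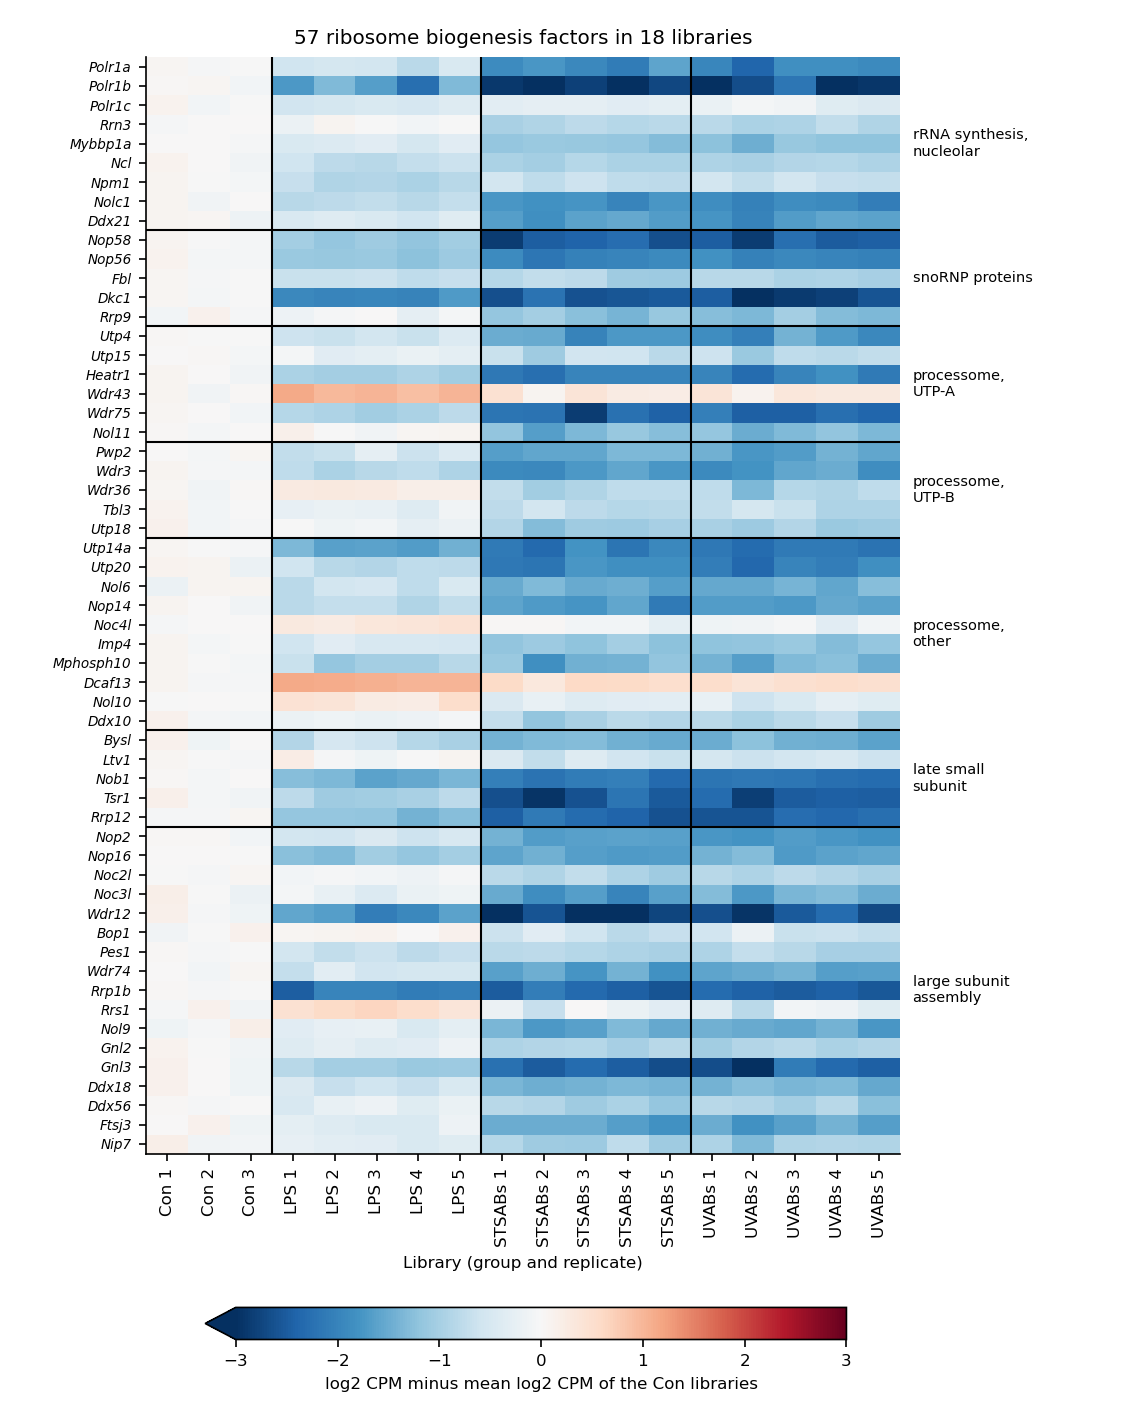
Rows are the 57 factors, ordered by role, and columns the 18 libraries. Colour gives log2 CPM minus the mean log2 CPM of the 3 Con libraries, and values below the colour scale's lower end take its darkest blue. Most rows are blue in LPS and darker in both AB groups, while Wdr43 and Dcaf13 are red in every LPS and AB library; with scaling by library totals alone they stayed higher in LPS, but no factor was called higher in an AB group than in Con.

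To show what lies in front of these genes, promoters were read from RefSeq (GRCm38.p6, from 250 bases before to 50 bases after each start). An entry was matched for 47 of the 57 factors, with 52 windows in all. The letters CACGTG, an E-box of the kind that MYC and MAX bind, stood in 12 of the 52 windows (23.1%), against 9.77% of the 12732 windows of tested genes and 7.15% of all 32851 windows. Within the 250 bases before the start alone they stood in 5 of 52 windows (9.62%), against 8.18% for tested genes. The letters CCGGAAGT, the core that ETS factors bind, stood in 13 windows (25.0%) of 12 genes, against 7.92%, and the GC box GGGCGG in 42 (80.8%), against 60.8%. Both strands were searched, CACGTG being its own reverse complement, and the 3 motifs do not share letters that would make their matches overlap by necessity. CAAGATGGC, known from YY1 sites, was found in 0 of the 52 windows, against 2.14%. These matches describe letters and show no binding.

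The 250 bases before the start are printed for 4 factors that the results turn on: Rrn3, Nop2 and Nol11, which hold an E-box there, and Polr1c, which rose in both AB groups and holds the ETS letters and no E-box. Capitals mark CACGTG, or CCGGAAGT in Polr1c, and each sequence runs 5′ to 3′ on the strand of its gene.
Rrn3, chr16:13780449-13780698, plus strand: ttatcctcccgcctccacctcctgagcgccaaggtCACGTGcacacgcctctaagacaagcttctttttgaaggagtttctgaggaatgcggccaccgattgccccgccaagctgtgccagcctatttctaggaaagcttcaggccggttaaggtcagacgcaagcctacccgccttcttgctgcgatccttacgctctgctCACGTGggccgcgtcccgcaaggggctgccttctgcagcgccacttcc
Nop2, chr6:125131633-125131882, plus strand: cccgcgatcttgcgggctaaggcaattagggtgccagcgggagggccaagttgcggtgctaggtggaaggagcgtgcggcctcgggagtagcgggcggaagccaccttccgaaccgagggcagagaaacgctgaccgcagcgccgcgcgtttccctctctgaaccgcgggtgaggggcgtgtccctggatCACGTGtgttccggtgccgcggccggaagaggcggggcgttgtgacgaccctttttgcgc
Nol11, chr11:107189382-107189631, minus strand: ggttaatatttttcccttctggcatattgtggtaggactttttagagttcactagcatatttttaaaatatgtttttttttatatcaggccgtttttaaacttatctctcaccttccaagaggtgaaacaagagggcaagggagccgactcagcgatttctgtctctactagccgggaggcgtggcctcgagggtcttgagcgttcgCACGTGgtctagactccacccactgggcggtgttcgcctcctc
Polr1c, chr17:46248046-46248295, minus strand: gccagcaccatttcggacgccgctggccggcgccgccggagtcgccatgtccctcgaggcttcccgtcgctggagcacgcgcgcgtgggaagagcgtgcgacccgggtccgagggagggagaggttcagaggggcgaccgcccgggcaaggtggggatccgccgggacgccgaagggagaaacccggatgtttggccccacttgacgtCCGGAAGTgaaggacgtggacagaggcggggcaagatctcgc
Rrn3 held the E-box at a pair of places, 215 and 48 bases before the start.

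The other factors with an E-box are shown by 30 bases around it, so that the letters next to the E-box can be compared. In Imp4 and Utp18 it lay before the start, and in the other 7 after it; capitals mark CACGTG.
Imp4, chr1:34439696-34439725, plus strand: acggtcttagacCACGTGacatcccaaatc
Utp18, chr11:93885769-93885798, minus strand: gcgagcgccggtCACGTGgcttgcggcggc
Tsr1, chr11:74898092-74898121, plus strand: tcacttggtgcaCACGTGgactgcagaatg
Wdr43, chr17:71616220-71616249, plus strand: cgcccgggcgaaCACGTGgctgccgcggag
Utp4, chr8:106893643-106893672, plus strand: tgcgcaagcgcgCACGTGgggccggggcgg
Utp20, chr10:88826765-88826794, minus strand: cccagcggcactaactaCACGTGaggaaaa
Pes1, chr11:3963965-3963994, plus strand: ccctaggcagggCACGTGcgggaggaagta
Mybbp1a, chr11:72441347-72441376, plus strand: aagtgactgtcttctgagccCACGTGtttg
Ltv1, chr10:13193092-13193121, minus strand: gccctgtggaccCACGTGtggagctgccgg
Wdr43, which rose in LPS, and Tsr1, with the largest fall in each AB group, both carry it. Of the 47 factors with an entry 12 held it, while 55 of the 57 fell in each AB group against LPS. Most factors that fell there thus had no E-box found, and a link between the E-box and the levels was not tested.

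The first comparison asked how the factors stood in the LPS group relative to the mock group. Of the 57 factors, 42 fell (73.7%), 6 rose (10.5%) and 9 did not pass (edgeR quasi-likelihood test, Benjamini-Hochberg adjusted p below 0.05 over all 12465 genes). Among all genes tested, 43.0% fell and 40.0% rose. The median log2 fold change of the factors was -0.54, and that of all genes -0.03. Large falls were not more frequent than elsewhere: 11 factors (19.3%) fell by 2-fold or more, against 21.0% of all genes, and 2 factors (Wdr43 and Dcaf13) rose by 2-fold or more, against 18.7%. The LPS libraries lay wholly below the Con libraries for 42 factors, against 41.7% of all genes, and wholly above for 6, against 38.4%.

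Directions between LPS and Con depend on the scaling, because the TMM factors averaged 1.51 in Con and 0.902 in LPS. The median of all genes was -0.31 with upper-quartile scaling and -0.78 with library totals alone, and the factors' median was -0.82 and -1.28. Relative to the median of all genes, the factors' median was -0.51 under each of these 3 scalings. A scaling shifts all genes of a comparison by nearly the same amount, so this value could hardly differ between them. The count of factors that fell was 42, 50 and 54, and the count that rose was 6, 2 and 2. Of the 9 factors that did not pass under TMM, 8 were called lower with upper-quartile scaling, Bop1 being the other, and all 9 with library totals. With DESeq2 size factors, a further scaling, no factor gained or lost a call.

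The polymerase I genes fell by unequal amounts in LPS. Polr1b encodes the second largest subunit of RNA polymerase I. It stood at 13.6, 13.8 and 12.5 CPM in Con and at 4.01, 5.33, 4.23, 2.76 and 5.34 CPM in LPS, a log2 fold change of -1.62 ± 0.15 (SE). The highest LPS library lay far below the lowest Con library. Polr1a, the gene of the largest subunit, was at 23.7, 22.3 and 22.6 CPM in Con and at 15.2, 15.9, 15.5, 13.1 and 16.7 CPM in LPS (log2 fold change -0.58 ± 0.09), also without overlap. Rrn3 encodes the factor that brings polymerase I to the ribosomal DNA promoter. It stood at 28.4, 29.5 and 29.2 CPM in Con and at 25.6, 30.6, 28.8, 27.2 and 28.9 CPM in LPS. The groups overlapped and the difference did not pass (log2 fold change -0.04 ± 0.07, edgeR adjusted p = 0.57 after Benjamini-Hochberg adjustment). Rrn3 was not called with DESeq2 size factors either. It was called lower in LPS with upper-quartile scaling (log2 fold change -0.32, edgeR adjusted p = 8.21e-05) and with library totals (-0.79, edgeR adjusted p = 1.75e-10). Of the 9 genes of ribosomal RNA synthesis and nucleolar proteins, 8 fell and Rrn3 was the one that did not pass.

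The abundant nucleolar proteins fell as well. Ncl was at 319.6, 299 and 276 CPM in Con and at 198, 173, 168, 180.2 and 189 CPM in LPS, a log2 fold change of -0.71 ± 0.06. Npm1 was at 379, 356 and 347 CPM in Con and at 225, 192, 197, 187 and 204 CPM in LPS, a log2 fold change of -0.84 ± 0.07. For both genes each LPS library lay below each Con library. Npm1 is known to have processed pseudogenes of near-identical sequence, so its counts are less certain than those of the other factors.

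Among the 5 snoRNP proteins 4 fell and Rrp9 did not pass (log2 fold change -0.10 ± 0.09). Dkc1, the pseudouridine synthase of the box H/ACA particles, had the largest fall of the 5, from 17.3, 15.9 and 16.5 CPM to 4.37, 4.18, 4.29, 4.14 and 5.09 CPM (log2 fold change -1.91 ± 0.09). The box C/D proteins, which carry out 2′-O-methylation, fell less: Nop56 by 1.14 ± 0.06, Nop58 by 1.10 ± 0.09 and the methyltransferase gene Fbl by 0.68 ± 0.07 on the log2 scale. In these 4 genes the LPS and Con libraries did not overlap, while those of Rrp9 did.

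Of the 6 factors that rose, 5 belong to the small subunit processome and 1 to large subunit assembly. Wdr43, a UTP-A protein, stood at 34.9, 30.2 and 33.3 CPM in Con and at 72.1, 63.9, 66.4, 61.4 and 66.3 CPM in LPS (log2 fold change 1.01 ± 0.08). Dcaf13, a processome protein also known as a substrate receptor of a ubiquitin ligase, stood at 25.8, 23.8 and 23.6 CPM in Con and at 53.6, 53.3, 51.1, 49.5 and 49.7 CPM in LPS (log2 fold change 1.07 ± 0.06). Each LPS library of either gene lay well above each Con library, and both genes were called higher under all 3 scalings. Nol10 (0.37 ± 0.08), Noc4l (0.34 ± 0.08), Wdr36 (0.24 ± 0.09) and the large subunit factor Rrs1 (0.51 ± 0.12) also rose on the log2 scale. These 4 were not called higher with upper-quartile scaling, where Wdr36 turned to -0.04, and with library totals all 4 turned to values below 0. The call of Wdr36 was also lost without Con replicate 2 (log2 fold change 0.19) and with the stricter filter on low counts (0.17). Over the whole processome, 13 of 21 genes fell, 5 rose and 3 did not pass. 

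Other members of the same particles fell in LPS. Heatr1, the large UTP-A scaffold, went from 49.7, 47.7 and 43.8 CPM to 24.4, 23.1, 23.3, 24.9 and 22.8 CPM (log2 fold change -0.99 ± 0.08). Utp14a, which activates the helicase DHX37, fell by 1.54 ± 0.09 on the log2 scale, from 34.2 ± 1.38 CPM (SD, n = 3) to 11.8 ± 1.16 CPM (SD, n = 5). Mphosph10 and Utp20, further processome proteins, fell by 0.93 ± 0.11 and 0.78 ± 0.09. The 3 processome genes that did not pass were Nol11 (0.04 ± 0.08), Utp18 (-0.13 ± 0.08) and Ddx10 (-0.14 ± 0.09), and the calls of Utp15 and Tbl3 rested on small differences (-0.24 ± 0.10 and -0.23 ± 0.09). The call of Tbl3 was lost without Con replicate 1, and that of Utp15 without any of Con replicates 1 and 2 and LPS replicates 2, 3 and 5.

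Of the 5 genes of late small subunit maturation, which finish the subunit on its way to the cytoplasm, 4 fell. Nob1, the endonuclease that makes the last cut of 18S ribosomal RNA, went from 21.2, 19.9 and 20.9 CPM to 8.50, 8.18, 6.74, 7.08 and 8.04 CPM (log2 fold change -1.42 ± 0.08). Rrp12 (-1.23 ± 0.09), Tsr1 (-0.93 ± 0.10) and Bysl (-0.76 ± 0.09), the genes of an export factor and of a pair of assembly factors, fell less, and Ltv1 did not pass (0.03 ± 0.08). The libraries of Ltv1 overlapped, at 22.8 to 24.2 CPM in Con and 21.4 to 27.1 CPM in LPS.

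In the large subunit group 13 of 17 genes fell, Rrs1 rose, and Noc2l, Noc3l and Bop1 did not pass. Noc3l (-0.20 ± 0.10) was called lower in some of the other fits, which are given below. The largest fall of all 57 factors was that of Rrp1b, a nucleolar protein of large subunit processing, from 22.1, 21.2 and 21.5 CPM in Con to 3.89, 5.51, 5.45, 5.04 and 5.22 CPM in LPS (log2 fold change -2.10 ± 0.09). Wdr12, which forms the PeBoW complex with PES1 and BOP1, went from 20.9, 18.3 and 17.2 CPM to 6.34, 5.94, 4.41, 4.92 and 6.20 CPM (log2 fold change -1.75 ± 0.11). Its partner Bop1 stood at 28.7, 30.9 and 33.8 CPM in Con and at 32.6, 33.0, 33.3, 31.4 and 34.1 CPM in LPS (log2 fold change 0.08 ± 0.10), with overlapping libraries. The third partner, Pes1, fell by 0.68 ± 0.07 on the log2 scale. Gnl3, the nucleostemin gene, fell by 1.02 ± 0.11, and Nop2, which methylates 28S ribosomal RNA, by 0.53 ± 0.06.

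**Figure D2:**
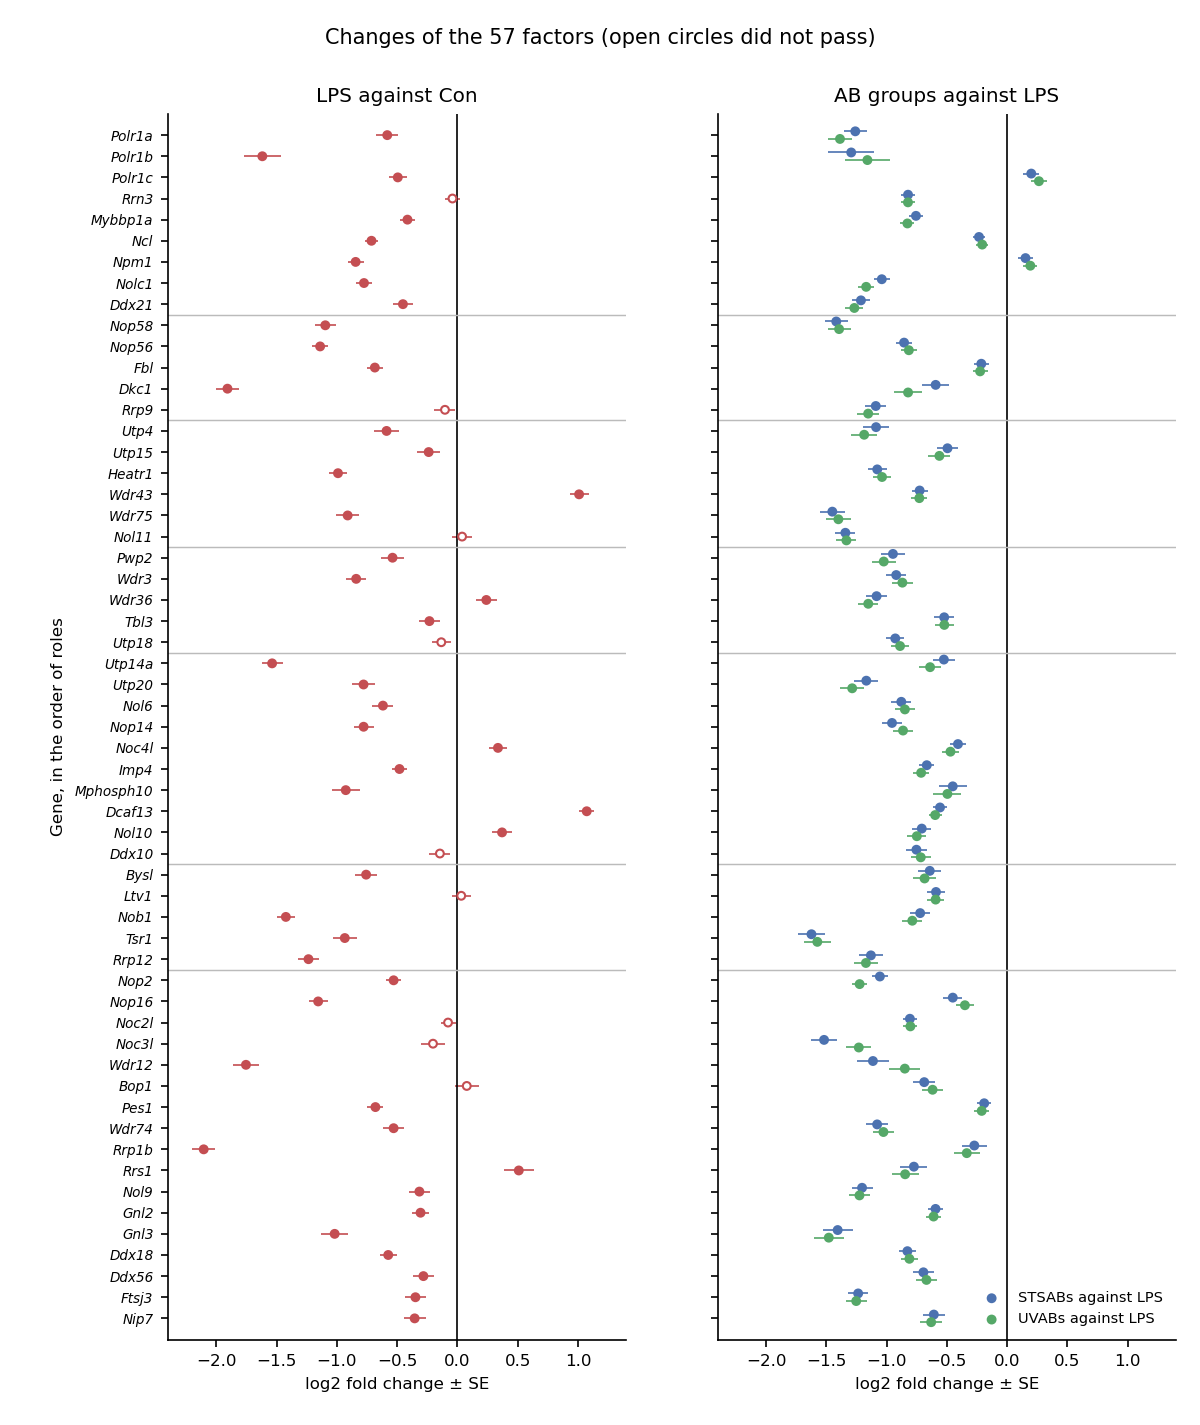
Points give the log2 fold change of each factor with its SE, in LPS against Con on the left and in each AB group against LPS on the right. Filled circles passed an adjusted p of 0.05 (edgeR); on the left 42 factors fell and 6 rose, of which all but Wdr43 and Dcaf13 lose the call with upper-quartile scaling or library totals, and on the right 55 fell in each AB group while Polr1c and Npm1 lie above 0.

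Genes of the cell cycle moved in the same comparison: 27 of 29 fell and 2 rose in LPS, and their summed level went from 1457 to 1569 CPM in Con to 742 to 866 CPM in LPS. Their part in the falls of the factors was not tested. Of the other ribosome biogenesis genes, a longer list of 106 of which 103 were tested, 56 fell and 26 rose (75 and 12 with upper-quartile scaling, 94 and 3 with library totals). Rcl1 (2.47 ± 0.07), a processome protein, Ddx24 (1.49 ± 0.05), a helicase, and Eif6 (1.42 ± 0.07), which keeps the large subunit from joining too early, had the smallest adjusted p of that list, and all 3 rose on the log2 scale.

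The second comparison asked how the factors stood in STSABs relative to LPS, and the third asked the same of UVABs. The 2 comparisons share the LPS libraries, so they are given side by side and neither is independent support for the other. In STSABs 55 factors fell and 2 rose, against 29.0% and 28.4% of all genes (edgeR, adjusted p below 0.05). In UVABs 55 fell and 2 rose, against 28.8% and 28.6%. The median log2 fold change of the factors was -0.82 in each, and that of all genes -0.01 in STSABs and 0.00 in UVABs. A fall of 2-fold or more was found for 21 factors in each, against 2.49% of all genes in STSABs and 2.28% in UVABs. The AB libraries lay wholly below the LPS libraries for 51 factors in each comparison, against 21.8% and 21.9% of all genes. Over the scalings, tests, filters and left-out libraries tried, between 52 and 55 factors fell in STSABs and between 53 and 55 in UVABs.

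The neutrophil markers moved with these comparisons. All 9 rose in STSABs and 8 of 9 in UVABs, and their summed level was 1813 to 2526 CPM in LPS, 3251 to 4714 CPM in STSABs and 3183 to 4205 CPM in UVABs, with Ly6g at 4.78, 7.80 and 7.70 CPM on average. Their part in the falls of the factors was not tested. Without the replicate numbered 2 of each AB group, whose libraries stand apart from the rest of their groups, 55 factors still fell in each comparison. The AB libraries that remained had neutrophil sums of 3251 CPM or more, above every LPS library, so this fit tells nothing about those markers.

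The polymerase I genes parted most widely. Polr1a stood at 6.20, 6.81, 5.99, 5.32 and 7.58 CPM in STSABs and at 5.88, 4.43, 6.41, 6.40 and 6.05 CPM in UVABs. All of these lay below the lowest LPS library, 13.1 CPM (log2 fold changes -1.26 ± 0.10 and -1.39 ± 0.10). Polr1b stood at 1.80, 1.64, 1.92, 1.46 and 2.00 CPM in STSABs and at 1.27, 2.10, 2.97, 1.57 and 1.76 CPM in UVABs (-1.29 ± 0.19 and -1.16 ± 0.19). UVABs replicate 3 overlapped with the lowest LPS library. Polr1c, a subunit that polymerase I shares with polymerase III, went the other way. It stood at 20.6, 21.1, 22.2, 21.6 and 23.4 CPM in LPS, at 24.8, 25.6, 25.5, 24.4 and 24.9 CPM in STSABs and at 26.9, 29.2, 28.4, 23.6 and 22.6 CPM in UVABs. It rose by 0.20 ± 0.07 and 0.26 ± 0.07 on the log2 scale, with no overlap in STSABs and an overlap in UVABs.

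Rrn3, which had not passed in LPS against Con, stood at 14.8, 15.4, 16.9, 16.0 and 16.6 CPM in STSABs and at 16.6, 14.9, 15.3, 17.5 and 15.5 CPM in UVABs. Each of these libraries lay below the lowest LPS library, 25.6 CPM, and the log2 fold change was -0.82 ± 0.06 in each. Its promoter is the one printed above with a pair of E-boxes. Npm1 was the other gene that rose, with 246, 213, 235, 212 and 210.0 CPM in STSABs and 245, 215, 246, 221 and 219.8 CPM in UVABs. Its libraries overlapped with those of LPS, and the changes were small (0.15 ± 0.06 and 0.19 ± 0.06). In STSABs the call of Npm1 was lost without LPS replicate 2, 3 or 4 or without STSABs replicate 1 or 3, with log2 fold changes of 0.11 to 0.15. Ncl fell by 0.23 ± 0.05 and 0.21 ± 0.05, with no overlap in either group.

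Within the box C/D particle the changes were again unequal. Nop58 went from 15.0, 13.7, 14.5, 13.3 and 14.9 CPM in LPS to 4.23, 5.53, 5.81, 6.26 and 4.88 CPM in STSABs and 5.52, 4.25, 6.35, 5.42 and 5.58 CPM in UVABs (-1.42 ± 0.10 and -1.39 ± 0.10). The highest AB library lay under the lowest LPS library. Fbl stood at 40.6, 40.4, 40.9, 38.1 and 40.1 CPM in LPS, at 35.7, 38.5, 37.2, 30.7 and 30.4 CPM in STSABs and at 35.9, 36.0, 33.3, 33.7 and 32.4 CPM in UVABs. Its falls were among the smallest (-0.21 ± 0.06 and -0.22 ± 0.06), and in STSABs the libraries overlapped. Nop56 lay between them (-0.86 ± 0.06 and -0.82 ± 0.06), and Dkc1 fell by 0.59 ± 0.11 in STSABs and 0.82 ± 0.11 in UVABs.

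All 21 processome genes fell in both AB groups relative to LPS. Wdr75, a UTP-A protein, had the largest fall of them, to 4.23, 4.19, 2.70, 4.15 and 3.64 CPM in STSABs and 4.67, 3.53, 3.56, 4.08 and 3.76 CPM in UVABs (-1.45 ± 0.10 and -1.40 ± 0.10). Nol11, which had not passed in LPS against Con, went from 22.3, 20.1, 18.7, 21.0 and 21.5 CPM in LPS to 8.92, 6.44, 7.97, 9.18 and 8.28 CPM in STSABs and 9.03, 7.19, 8.02, 8.91 and 7.93 CPM in UVABs (-1.34 ± 0.08 and -1.33 ± 0.08). For both genes the AB libraries lay wholly below LPS. The genes that had risen in LPS fell too. Wdr43 came to 44.8, 34.7, 42.8, 39.1 and 38.1 CPM in STSABs and 42.7, 35.5, 41.2, 39.9 and 39.8 CPM in UVABs (-0.73 ± 0.07 in each), and Dcaf13 changed by -0.56 ± 0.05 and -0.60 ± 0.05. Heatr1 (-1.08 ± 0.08 and -1.04 ± 0.08), Utp20 (-1.17 ± 0.10 and -1.29 ± 0.10) and Mphosph10 (-0.45 ± 0.12 and -0.50 ± 0.12) fell on top of their lower level in LPS; Mphosph10 libraries overlapped in STSABs.

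**Figure D3:**
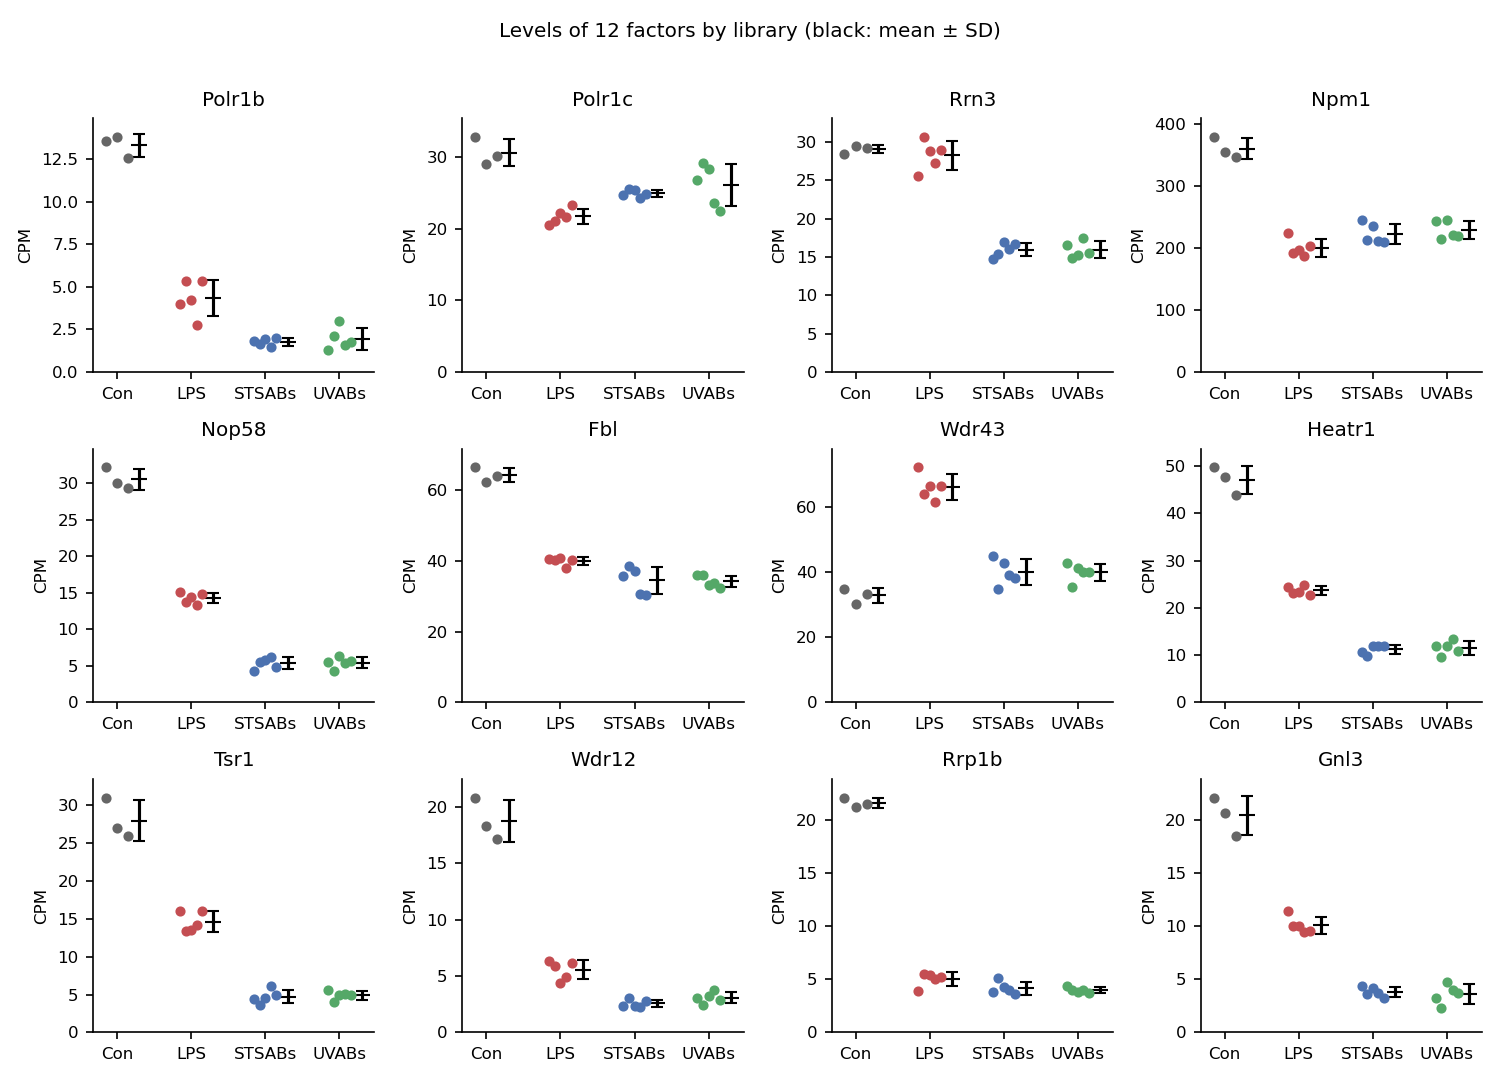
Each point is a library's CPM for one of 12 factors, by group, with the mean and SD in black; each vertical axis starts at 0 and has its own range. Polr1c and Npm1 lie slightly higher in the AB groups than in LPS, Fbl slightly lower, and Nop58, Tsr1 and Gnl3 far lower, while Rrn3 overlaps between Con and LPS on this TMM scale (it is called lower in LPS with upper-quartile scaling or library totals) and is lower in both AB groups.

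Tsr1, an assembly factor of the small subunit in the cytoplasm, had the largest fall of all factors in each comparison. It stood at 16.0, 13.3, 13.5, 14.2 and 16.1 CPM in LPS, at 4.46, 3.65, 4.55, 6.14 and 4.88 CPM in STSABs and at 5.58, 3.95, 4.93, 5.07 and 4.99 CPM in UVABs (-1.62 ± 0.11 and -1.57 ± 0.11). No AB library came near the LPS range. The other genes of late maturation fell as well: Nob1 changed by -0.72 ± 0.08 and -0.79 ± 0.08, Bysl by -0.64 ± 0.10 and -0.69 ± 0.10, and Ltv1 by -0.59 ± 0.07 in each.

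All 17 genes of large subunit assembly fell in both groups. Gnl3 went from 11.4, 9.997, 9.99, 9.43 and 9.51 CPM in LPS to 4.34, 3.59, 4.13, 3.68 and 3.23 CPM in STSABs and 3.21, 2.34, 4.75, 4.02 and 3.70 CPM in UVABs (-1.41 ± 0.12 and -1.48 ± 0.13). Noc3l, a pre-60S factor that had not passed between LPS and Con, went from 11.5, 10.4, 9.07, 10.5 and 11.0 CPM to 4.23, 3.28, 3.83, 3.04 and 3.88 CPM and 4.85, 3.65, 4.63, 4.89 and 4.29 CPM (-1.52 ± 0.11 and -1.23 ± 0.10). In both genes the AB and LPS libraries were apart. Wdr12 changed by -1.11 ± 0.13 and -0.85 ± 0.13, Bop1 by -0.69 ± 0.09 and -0.62 ± 0.09, and Pes1 by -0.19 ± 0.06 and -0.21 ± 0.06, the last with overlapping libraries in both groups. Rrp1b, with the largest fall in LPS, changed little more (-0.27 ± 0.11 and -0.34 ± 0.11). Its AB libraries overlapped with LPS, and its call in STSABs was lost without any one of LPS replicates 2 to 5 or of STSABs replicates 1, 4 and 5 (log2 fold change -0.27 to -0.22).

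Ratios between partner genes within a library do not depend on scaling and show the unequal changes directly. They were chosen after the values were seen, are given without a test, and, since counts were not divided by gene length, only their change between groups can be read. Wdr12 to Bop1 was 0.609 ± 0.111 (SD, n = 3) in Con, 0.169 ± 0.0246 (SD, n = 5) in LPS, 0.126 ± 0.0114 (SD, n = 5) in STSABs and 0.148 ± 0.0368 (SD, n = 5) in UVABs. Most of its drop lay between Con and LPS. Polr1a to Polr1c was 0.746 ± 0.0223 in Con and 0.702 ± 0.0580 in LPS, with overlapping ranges, and 0.255 ± 0.0331 in STSABs and 0.227 ± 0.0484 in UVABs. Its drop lay between LPS and the AB groups, whose highest ratio was 0.305. Nop58 to Fbl fell at both steps, from 0.474 ± 0.0154 in Con to 0.357 ± 0.0135 in LPS, 0.157 ± 0.0311 in STSABs and 0.159 ± 0.0268 in UVABs. Pes1 to Bop1 went down and up again, at 3.51 ± 0.355, 2.07 ± 0.139, 2.94 ± 0.238 and 2.77 ± 0.243 in the same order.

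**Figure D4:**
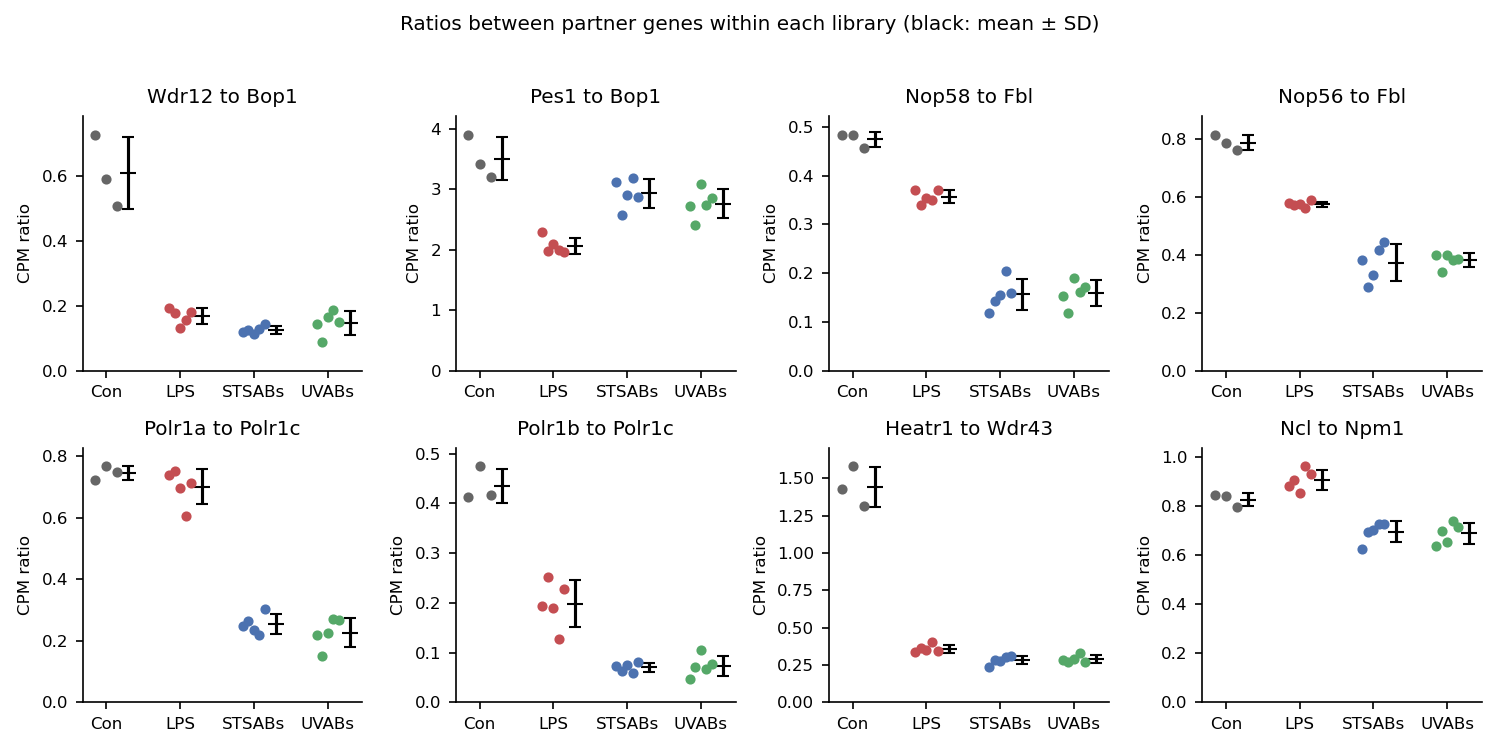
Each point is the CPM ratio of a pair of partner genes in a library, by group, with the mean and SD in black. Wdr12 to Bop1 drops mainly between Con and LPS and Polr1a to Polr1c between LPS and the AB groups. Heatr1 to Wdr43 drops far between Con and LPS (1.44 to 0.360 on average) and a little further in STSABs (0.283) and UVABs (0.289), and Polr1b to Polr1c, Nop58 to Fbl and Nop56 to Fbl also drop at both steps.

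The fourth comparison asked whether UVABs and STSABs differed. No factor passed, and neither did any of the 12465 genes (0%, edgeR adjusted p below 0.05). At an unadjusted p below 0.05 there were 198 genes and 2 factors by edgeR, 151 genes and 1 factor by DESeq2, and 191 genes and 2 factors by limma-voom. With the replicate number as a block in the AB groups alone, edgeR gave 457 genes and 2 factors at that level, and again 0 factors passed after adjustment. Chance gives about 5% at that level where nothing differs, and each of these counts was below 5% of the genes or factors tested. The values and intervals that follow are from the fit without the block. The 2 factors by edgeR were Nop2 and Noc3l. Nop2 stood at 10.4, 8.75, 9.04, 9.06 and 9.05 CPM in STSABs and at 8.25, 8.02, 8.73, 8.33 and 7.93 CPM in UVABs (UVABs minus STSABs -0.17 on the log2 scale, 95% interval -0.31 to -0.02). It was the 1 factor whose libraries did not overlap, as was so for 0.136% of genes higher and 0.209% lower in UVABs. Noc3l was 0.29 higher in UVABs, with a 95% interval of 0.04 to 0.54. The 95% intervals of 54 of the 57 differences lay within 0.5 of 0, and all within 1, from -0.48 to 0.59, the highest bound being that of Polr1b with its low counts. These data do not show whether the AB groups differ by less than these bounds.

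Against Con, which the remaining comparisons share with that of LPS, 53 factors fell and 2 rose in STSABs, and 54 fell and 2 rose in UVABs. Among all genes 42.6% fell and 40.0% rose in STSABs, and 42.4% fell and 40.2% rose in UVABs. The factors' median log2 fold change was -1.40 and -1.43, and 36 factors fell by 2-fold or more in each, against 19.6% and 19.5% of all genes. The largest falls were those of Polr1b (-2.91 ± 0.18 and -2.78 ± 0.17), Wdr12 (-2.87 ± 0.12 and -2.60 ± 0.12), Tsr1 (-2.56 ± 0.11 and -2.51 ± 0.11), Nop58 (-2.51 ± 0.10 and -2.49 ± 0.10), Dkc1 (-2.50 ± 0.10 and -2.73 ± 0.10) and Gnl3 (-2.42 ± 0.12 and -2.50 ± 0.12). Wdr43 (0.28 ± 0.08 in each) and Dcaf13 (0.52 ± 0.06 and 0.48 ± 0.06) were above Con, and neither was called higher with library totals. Noc4l did not pass in either group (-0.07 ± 0.08 and -0.13 ± 0.08), and Rrs1 did not pass in STSABs (-0.26 ± 0.13).

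The genes of the ribosome's own proteins went the other way in the AB groups. Of 79 cytosolic ribosomal protein genes, 77 rose in STSABs relative to LPS and 76 in UVABs, and 0 fell. Rpl24 and Rpl38 did not pass in either, nor Rps24 in UVABs. Their medians were 0.28 and 0.29 on the log2 scale. Rpl3, a core large subunit protein, stood at 715 ± 53.1 CPM (SD, n = 5) in LPS, 987 ± 62.0 CPM (SD, n = 5) in STSABs and 968.5 ± 56.6 CPM (SD, n = 5) in UVABs, changes of 0.46 ± 0.06 and 0.44 ± 0.06. Rpl4 changed by 0.44 ± 0.06 in each, Rpl34 by 0.28 ± 0.05 in each, Rpl5 by 0.39 ± 0.05 and 0.42 ± 0.05, and Rpl17 by 0.37 ± 0.05 and 0.42 ± 0.05. Between LPS and Con, 22 rose, 10 fell and 47 did not pass, and with library totals 77 fell and 0 rose, so no direction is given there. These genes have many processed pseudogenes, and their counts are uncertain to that extent.

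Beyond the 57 factors, the other ribosome biogenesis genes fell in the AB groups with exceptions. Of 103 tested, 79 fell and 5 rose in STSABs, and 81 fell and 3 rose in UVABs, with medians of -0.51 and -0.48. Pdcd11, a processome protein (-1.09 ± 0.08 and -1.10 ± 0.08), Dhx33, a helicase (-1.04 ± 0.08 and -1.13 ± 0.08), Lsg1, a GTPase of the cytoplasmic pre-60S particle (-0.92 ± 0.07 and -0.84 ± 0.07), and Nifk, a partner of Ki-67 (-1.02 ± 0.08 and -1.13 ± 0.08), fell in both. Nop53 (0.67 ± 0.06 and 0.62 ± 0.06), Ruvbl2 (0.55 ± 0.08 and 0.54 ± 0.08) and Polr1d (0.19 ± 0.06 and 0.17 ± 0.06) rose in both. POLR1D is the partner of POLR1C in polymerases I and III. Nufip1 (0.26 ± 0.10) and Utp3 (0.15 ± 0.06) rose in STSABs and did not pass in UVABs (0.19 ± 0.10 and 0.13 ± 0.06), and UVABs against STSABs gave no call for either gene.

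The MYC network was examined because MYC is known to drive these genes and the MXD proteins, MXI1 and MNT to compete with it for MAX. Myc stood at 44.2, 47.8 and 42.5 CPM in Con and at 13.5, 14.1, 13.5, 12.7 and 16.5 CPM in LPS (log2 fold change -1.67 ± 0.09). It stood at 14.7, 15.6, 14.1, 13.7 and 14.2 CPM in STSABs and at 15.0, 11.2, 16.3, 15.2 and 14.2 CPM in UVABs. Myc RNA fell between Con and LPS, and the AB libraries overlapped with LPS (0.04 ± 0.09 and 0.03 ± 0.09, not passed) while the biogenesis factors were lower. Max rose in LPS (2.23 ± 0.06) and fell from there in the AB groups (-0.47 ± 0.04 and -0.45 ± 0.04).

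Mxd1, Mxi1 and Mnt rose in the AB groups relative to LPS, while Mxd3 (-0.17 ± 0.25 and -0.19 ± 0.25) and Mxd4 (0.19 ± 0.14 and 0.10 ± 0.14) did not pass. Mga (-0.27 ± 0.09 and -0.36 ± 0.09) and Mycl (-0.61 ± 0.18 and -0.66 ± 0.18), also of the network, fell in both AB groups. Mxd1 stood at 36.8, 39.6 and 36.9 CPM in Con and at 337, 397, 392, 344 and 417 CPM in LPS. In STSABs it stood at 861, 1019, 864, 802 and 886 CPM and in UVABs at 872, 957, 865, 806 and 862 CPM, without overlap (1.23 ± 0.07 and 1.21 ± 0.07). Mxi1 stood at 51.7, 55.9, 58.3, 57.6 and 60.6 CPM in LPS, at 172, 221, 160.5, 171 and 172 CPM in STSABs and at 168, 219.7, 165, 173 and 159.8 CPM in UVABs (1.66 ± 0.09 and 1.64 ± 0.09). Replicate 2 was the highest of both AB groups for Mxd1 and Mxi1. Mnt fell in LPS (-1.75 ± 0.12) and rose from there in the AB groups (0.68 ± 0.12 and 0.72 ± 0.12). Of the 11 genes of the network that were tested, 3 rose and 3 fell in STSABs, and 4 rose and 3 fell in UVABs. Whether these levels bear on the factors was not tested.

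**Figure D5:**
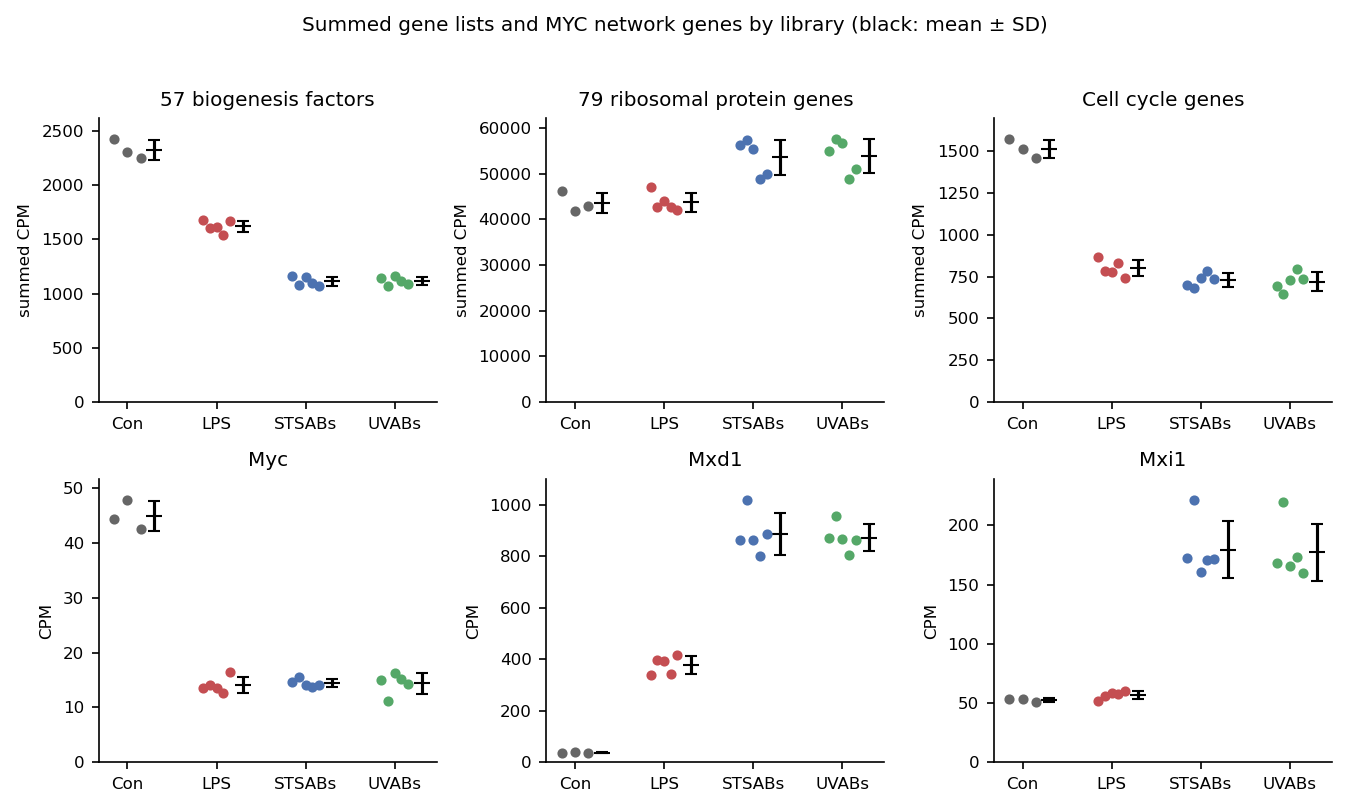
Points are libraries, with the mean and SD in black: the upper row gives summed CPM of the 57 factors, of 79 ribosomal protein genes and of 29 cell cycle genes, and the lower row CPM of Myc, Mxd1 and Mxi1. The factors are lower in both AB groups than in LPS (1112 and 1114 against 1618 CPM on average), ribosomal protein genes are higher there, and Myc is level between LPS and the AB groups.

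Cell cycle genes did not follow the factors between LPS and the AB groups. Of 29 genes, 8 rose and 5 fell in STSABs, and 8 rose and 4 fell in UVABs, with medians of 0.03 and 0.04. Pcna, the sliding clamp of DNA replication, fell (-0.67 ± 0.06 and -0.69 ± 0.06), as did Mcm6 (-0.32 ± 0.06 and -0.39 ± 0.06), while the mitotic genes Bub1b (0.41 ± 0.08 and 0.35 ± 0.08) and Plk1 (0.35 ± 0.07 and 0.31 ± 0.07) rose. Ccna2, Cdc20 and Mcm7 had the smallest adjusted p between LPS and Con (-2.04 ± 0.07, -1.96 ± 0.08 and -1.84 ± 0.07).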

How the data were processed

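RNA sequencing of 18 mouse bone marrow macrophage libraries was analysed from the gene table the authors deposited, which holds estimated counts per gene symbol and library. HISAT2 and the mm39 build are named by the submitters' processing notes. A counting tool, an annotation and a strand setting were "not given in the sources used here". Of the values 6.35% were not whole, in 2017 genes, and were rounded; 4 of the 57 factors had such values, none in most libraries. How reads shared between near-identical genes or with antisense RNA were assigned is likewise not given.

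Genes with too few counts were removed with filterByExpr of edgeR 4.0.16 under R 4.3.3, which left 12465 genes holding 99.97% of the counts. Totals were 17588357 to 18675283 counts per library and limit the precision of the least abundant factors most. Libraries were scaled by TMM and tested with edgeR's quasi-likelihood test on all 18 libraries with 1 mean per group and no block. P-values were adjusted by Benjamini-Hochberg within each of 6 comparisons, with a threshold of 0.05. The SE is approximate, taken as the absolute log2 fold change over the root of the F statistic. The procedure was also run on simulated data with few changed genes and no pairing of libraries. That run says nothing about scaling or pairing in these data.

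The members and gene lists were chosen with earlier results of these data known. Named genes are a panel of 21 factors, the 5 largest called changes in each direction, groups of 5 or fewer exceptions, the 3 smallest adjusted p of each other list, and Myc, Max, Mxd1, Mxi1 and Mnt. Other genes were named after their values were seen. Promoters came from RefSeq on GRCm38.p6, another build than that of the counts, and were used for their letters.

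Same-numbered UVABs and STSABs libraries deviated together for some numbers, by correlations over genes. The correlation was 0.687 for number 2 (at most -0.004 with another number), 0.467 for number 4 (0.31) and 0.231 for number 3 (0.11). Numbers 1 (0.143 against 0.125) and 5 (0.239 against 0.246) hardly stood out. A fit with the replicate number as a block was therefore also made. Alternatives were 3 other scalings, 2 other filters, DESeq2 1.42.0, limma 3.58.1 (voom), a separate fit per pair of groups, the libraries numbered 1 to 3 alone, a covariate for the numbers 4 and 5, and leaving out libraries. No library or factor was left out of the main results.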

Additional observations from a re-analysis of the deposited data

Results flagged for a closer look

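In groups of 5 libraries, the highest and lowest values of the 57 factors, and of their summed CPM and share of all counts, were compared with their nearest neighbour by Dixon's test. Of 177 groups examined 12 held a value set apart from the others, where chance gives about 5%. In LPS, Nop56 in replicate 4 was low (21.4 CPM, the next 23.1), as was Fbl in the same library (38.1, the next 40.1), while Dkc1 was high in replicate 5 (5.09, the next 4.37) and Gnl3 in replicate 1 (11.4, the next 9.997). In STSABs replicate 2, Dkc1 (3.59, the next 2.88) and Tbl3 (14.2, the next 12.1) were high, and in STSABs replicate 1 Nop2 was high (10.4, the next 9.06). Without this library the log2 difference of Nop2 between UVABs and STSABs was -0.12, against -0.17 with it, and it passed in neither case (edgeR, adjusted p = 1 in both).

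In UVABs replicate 2, Polr1a (4.43, the next 5.88), Mybbp1a (32.8, the next 38.7) and Nip7 (8.20, the next 10.7) were low and Bop1 was high (27.4, the next 21.0). Rrp9 was high in UVABs replicate 3 (5.76, the next 4.85). The replicates numbered 2 of the AB groups held 6 of the 12 values.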

How the results depend on the processing

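The counts of factors that fell stayed within 1.5 times their main value under each of the 32 alternatives that applied to it. The counts that rose moved with scaling, which shifts all genes of a comparison by nearly the same amount. Between LPS and Con 2 rose with upper-quartile scaling and 2 with library totals, against 6. Between either AB group and Con 1 rose with upper-quartile scaling and 0 with library totals, against 2. In LPS against Con, upper-quartile scaling also turned the log2 fold change of Nol11 to -0.24, Wdr36 to -0.038, Ltv1 to -0.25, Rpl34 to -0.013, Dhx33 to -0.041 and Pcna to -0.032. Library totals turned Nol11 to -0.71, Wdr36 to -0.51, Noc4l to -0.41, Nol10 to -0.37, Ltv1 to -0.71, Bop1 to -0.67, Rrs1 to -0.24, Rpl34 to -0.48, Dhx33 to -0.51, Mxi1 to -0.63 and Pcna to -0.50. Rrn3, Rrp9, Utp18, Ddx10, Noc2l and Noc3l gained a call as lower in LPS under both scalings, and Utp18, Ddx10, Noc2l and Noc3l also with the stricter filter, under which Wdr36 lost its call and 46 factors fell. Noc3l gained this call too with the replicate block and without Con replicate 3, LPS replicate 1 or UVABs replicate 2. The same held without both AB libraries numbered 2, and its log2 fold change in these fits was -0.28 to -0.20.

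In STSABs against LPS 1 factor rose with replicates 1 to 3 only, where Npm1, Fbl, Pes1 and Rrp1b lost their calls; in UVABs Nop16 and Rrp1b did, with fewer samples in each case. Leaving out 1 library at a time gave 40 to 43 falls and 5 to 6 rises between LPS and Con, 54 to 55 falls and 1 to 2 rises in STSABs against LPS, and 55 falls and 2 rises in UVABs against LPS. Rrp1b in STSABs was also not called with library totals, DESeq2 or only the groups compared.

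With the replicate number as a block, 43 factors fell in LPS against Con, 55 in each AB group against LPS and 0 in UVABs against STSABs. In the AB groups alone the block gave 0 calls among the factors, with 457 genes and 2 factors at an unadjusted p below 0.05. Both counts were below the 5% that chance gives. LPS and Con libraries numbered 1 and 3 deviated together weakly (0.144 and 0.207, against at most -0.026 and -0.035 with another number). Those numbered 2 did not (0.026 against 0.027). LPS shared no clear pairing with the AB groups (same-number correlations of -0.028 to 0.105). Depth limits the least abundant factors most: Polr1b had 1.27 to 2.97 CPM in the AB groups.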

Other observations

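Summed levels of markers of cell types other than macrophages are given here, and some rest on a single gene. The summed CPM of the neutrophil markers averaged 1317 in Con and 2095 in LPS, against 4021 in STSABs and 3707 in UVABs. That of the dendritic cell markers averaged 220.3, 2546, 3037 and 3086 in the same order, and that of the T and NK cell markers 105.8, 273.6, 248.7 and 261.2. Ccr7 alone made up 2492 CPM of the dendritic sum in LPS, and Il7r 266 CPM of the T and NK sum. Other members were lower in LPS than in Con, such as Cd209a (41.8 CPM in Con and 2.86 in LPS), Clec9a (4.25 and 1.89) and Klrb1c (1.67 and 0.146). Of the 9 neutrophil markers, 6 rose, 2 fell and 1 did not pass in LPS against Con. Ltf (165 CPM in Con and 103 in LPS) and Retnlg (3.94 and 1.60) were the lower ones. The stromal markers averaged 49.7 CPM in Con and 12.9 in LPS, with 19.4 in STSABs and 19.6 in UVABs. Lepr alone made up 47.5 CPM of this sum in Con and 5.28 CPM in LPS, while Pdgfrb went from 1.16 to 5.26 CPM and Col1a1 (0.241 and 0.473), Col1a2 (0.289 and 0.509) and Dcn (0.0361 and 0.436) were low in both. The B cell markers were low in each group (3.08, 5.70, 3.62 and 3.82). Some of these genes are also expressed by macrophages, and how many was not examined.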
